A study of Mus musculus with 6 samples.

Results

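The immediate early transcription factors described here are 10 genes chosen by name: Fos, Fosb, Jun, Junb, Egr1, Egr2, Egr3, Atf3, Ier2 and Nr4a1. All 10 were found among the 24062 gene symbols of the count table, and all 10 passed the filter on low counts that left 15222 genes for testing. The RNA came from aortic arch plaque of C57BL/6 mice lacking the low-density lipoprotein receptor. Every animal was given a high-fat diet for 12 weeks and then the diet that the labels call LFD for 3 weeks. The 3 ABT263 libraries came from mice injected into the peritoneum with ABT263 at 100 mg/kg, 1 time per day, in week 1 of that second diet, and the 3 vehicle libraries from mice given vehicle. ABT263 (navitoclax) inhibits survival proteins of the BCL-2 family and is used to remove senescent cells. The receptor deletion and both diets were shared by the 2 groups, and no untreated or wild-type plaque is part of the design. Age, sex, the make-up of the vehicle, the number of injections and whether each library was 1 animal were not stated in the material at hand.

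Immediate early genes are transcribed within minutes of a stimulus, from growth factors and cytokines to mechanical strain and tissue handling, without any need for new protein. Kinases of the MAPK pathways and cAMP signalling switch on factors already bound at their promoters, such as the serum response factor at CArG boxes and CREB at cAMP response elements. FOS and JUN proteins pair through leucine zippers into the AP-1 complex, EGR proteins are zinc finger factors, and NR4A1 is a nuclear receptor without a known hormone. In the artery wall these genes are known from injured smooth muscle and from activated macrophages, and most of their mRNAs are short-lived.

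For all 10 genes the ABT263 and the vehicle libraries overlapped. None passed edgeR's quasi-likelihood test (adjusted p from 0.628 for Fosb to 0.959 for Egr1), where 0% of all tested genes passed. DESeq2 called 153 genes and limma-voom 0, and none of the 10 was among them. None had an unadjusted p under 0.05, against 8.38% of all tested genes. Groups that did not overlap were 0 of 10. Among all tested genes 5.68% had every ABT263 library above every vehicle library and 6.31% had every ABT263 library below. Fold changes were positive for 4 genes and negative for 6 (median log2 fold change -0.20), where the median over all tested genes was 0.00080. Without vehicle replicate 2 and ABT263 replicate 2, which stand apart as described below, 7 were positive and 3 negative and the median was 0.24. These libraries had the highest and the lowest mean over the 10 genes themselves (0.42 and -0.62 in centred log2 CPM). Leaving both out therefore had to raise the mean difference of the 10, and no conclusion is drawn from the shift.

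The 10 genes varied widely between libraries of the same group. Levels are given as CPM, the read count scaled to a common library total after TMM normalization. The within-group SD of log2 CPM was above the median of all tested genes (0.40) in 9 of the 10, and their own median was 0.59. ABT263 replicate 2 was the lowest library for 7 of the 10 genes, and vehicle replicate 2 was the highest for 4. Counts ran from 179 to 26740 per gene and library, so that counting error was at most 7.47% of a value, and the coefficient of variation within a group ran from 8.88% to 81.4%. Counting error was thus small beside the spread between libraries.

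**Figure D1:**
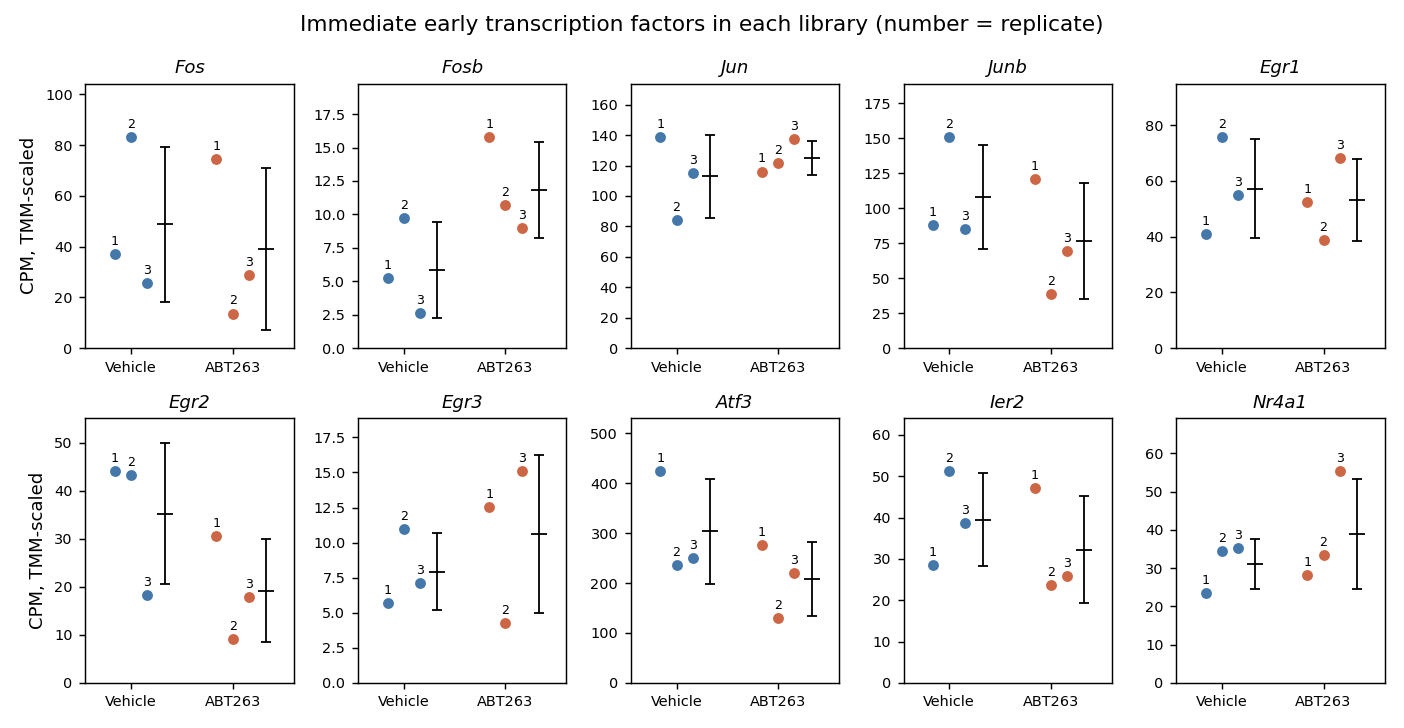
Level of each of the 10 genes in each library, in CPM after TMM scaling on linear axes that start at 0, with the replicate number above each point. The bars are mean ± SD over 3 libraries of a group, and the 2 groups overlap in every panel.

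Vehicle replicate 2 and ABT263 replicate 2 also stood apart in other genes, and ABT263 replicates 1 and 3 did so in some. Total counts ran from 62930547 to 110452098, and the TMM factors from 0.930 to 1.07. Macrophage markers (10 of 10 found, none at 0 counts) summed to 16939.6 to 27086 CPM with vehicle and 8527 to 17005 CPM with ABT263, the lowest sum being that of ABT263 replicate 2. Smooth muscle markers (10 of 10 found, none at 0) summed to 2667 to 3659 CPM with vehicle and to 2429, 15979 and 9848 CPM in ABT263 replicates 1 to 3. Adipocyte markers (8 of 8 found) summed to 4060 CPM in ABT263 replicate 2 and to between 94.2 and 328 CPM in the other libraries, with Lep at 0 counts in 3 of those. Endothelial markers (8 of 8 found, none at 0) summed to 487 CPM in vehicle replicate 2 and to at least 1807 CPM elsewhere. Adventitial fibroblast markers (8 of 8 found, none at 0) summed to 5645 CPM in ABT263 replicate 2 and to 912 to 1244 CPM elsewhere. Skeletal muscle markers (8 of 8 found, none at 0) summed to 43.7 CPM in ABT263 replicate 3 and to 4.79 to 9.82 CPM elsewhere. Erythroid markers (5 of 5 found, 2 or 4 at 0 in each library) summed to 3206 CPM in ABT263 replicate 1. They summed to 145 CPM in ABT263 replicate 3 and to 697 to 1840 CPM elsewhere. Summed lymphocyte, neutrophil and cartilage markers were lower in every ABT263 library than in every vehicle library. Taken singly, 6 of 8 tested T cell and 5 of 7 B cell markers were lower without overlap. The same held for 3 of 6 neutrophil, 3 of 6 chondrocyte and 6 of 10 macrophage markers, against 6.31% of all tested genes. T cell markers (8 of 9 found, none at 0) summed to 173 to 204 CPM with vehicle and 40.8 to 147.1 CPM with ABT263, and B cell markers (7 of 7, none at 0) to 108 to 187 and 30.9 to 85.0 CPM. Chondrocyte markers (8 of 8, Matn1 or Matn3 at 0 in 4 libraries) summed to 1452 to 2602 and 689 to 1222 CPM. Neutrophil markers (7 of 8, Mpo at 0 in vehicle replicate 1 and ABT263 replicate 2) summed to 114 to 270 and 45.4 to 113 CPM, a narrow gap. Rn45s, a ribosomal RNA precursor, took 1.74% of the counts in vehicle replicate 2, 0.54% and 0.55% in the other vehicle libraries and 0.30% to 0.33% with ABT263. The part of these differences in the levels below was not tested. In bulk RNA, fewer cells of a type and less RNA per cell cannot be told apart.

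Such stimuli are known to act through short promoter elements, and the promoters of Fos, Fosb, Egr2 and Junb, which had the largest ratios of highest to lowest library of the 10, and of Jun, which had the smallest, are shown to set them beside the values. RefSeq (GRCm38.p6) gave a promoter window for 7 of the 10 genes, those other than Egr1, Egr3 and Ier2. The last 170 bases before the start of transcription are printed 5′ to 3′ on the gene's own strand, with the matches to the searched motifs in capitals. Searched on both strands were the cAMP response element core TGACG, the CArG box, TATAAA, and the elements TGACATCA and TTACCTCA described in the Jun promoter. For Egr2, which has 5 windows, the window with the most matches is shown.
Fos, chr12:85473720-85473889, plus strand: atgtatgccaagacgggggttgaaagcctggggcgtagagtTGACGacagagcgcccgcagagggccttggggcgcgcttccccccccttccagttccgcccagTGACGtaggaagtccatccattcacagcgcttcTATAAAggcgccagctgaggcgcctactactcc
Fosb, chr7:19310046-19310215, minus strand: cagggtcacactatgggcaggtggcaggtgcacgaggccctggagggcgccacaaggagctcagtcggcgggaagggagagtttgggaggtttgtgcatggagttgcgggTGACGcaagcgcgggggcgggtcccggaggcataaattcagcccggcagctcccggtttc
Egr2, chr10:67537699-67537868, plus strand: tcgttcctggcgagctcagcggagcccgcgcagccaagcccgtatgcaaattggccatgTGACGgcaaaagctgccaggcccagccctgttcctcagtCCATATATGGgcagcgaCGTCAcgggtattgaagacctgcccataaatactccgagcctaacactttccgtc
Junb, chr8:84978749-84978918, minus strand: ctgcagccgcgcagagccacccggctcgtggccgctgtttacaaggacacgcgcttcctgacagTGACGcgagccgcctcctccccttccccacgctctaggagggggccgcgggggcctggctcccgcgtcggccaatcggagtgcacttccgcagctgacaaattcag
Jun, chr4:95052223-95052392, minus strand: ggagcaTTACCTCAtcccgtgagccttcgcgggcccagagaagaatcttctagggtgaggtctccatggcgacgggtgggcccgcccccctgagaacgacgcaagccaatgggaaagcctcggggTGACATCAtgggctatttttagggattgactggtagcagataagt

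Of the 7 windows, 6 held TGACG on either strand, against 14.4% of 32851 windows of the same length. The comparison is uneven, since the Egr2 window was picked by its matches and the motif for its known part in such promoters. Fos had it at -129 and -66 from the start, followed by TATAAA at -33, a motif in 8.4% of windows. Fosb had it at -60, Junb at -106 and Egr2 at -111 and, on the opposite strand, at -55. Atf3 and Nr4a1, not printed, had it on the opposite strand, Atf3 at -7 and Nr4a1 at -69 and -40. Among the 7 windows, that of Egr2 was the one with a CArG box, at -72, which 1.02% of windows held. Bases farther upstream were not searched, nor were Egr1, Egr3 and Ier2, which had no window. The other genes, Fos among them, may therefore have a CArG box outside the searched bases. Jun was the gene without TGACG, and had TTACCTCA at -164 (0.502% of windows) and TGACATCA at -45 (2.44%). Both elements were searched because they had been described in the Jun promoter, so the shares do not weigh their presence there. These matches describe letters within the windows and not sites in use in this tissue. Their relation to the spread between libraries was not tested.

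Fos, the founding partner of JUN in AP-1 (chromosome 12, 85473890 to 85477273, mm10), had the widest spread of the 10. It stood at 37.1, 83.4 and 25.8 CPM in vehicle replicates 1 to 3 and at 74.7, 13.6 and 28.8 CPM in ABT263 replicates 1 to 3. The highest library, vehicle replicate 2, was 6.12 times the lowest, ABT263 replicate 2, and high and low libraries were found in both groups. Its log2 fold change was -0.32 (SE 0.69, 95% interval -1.97 to 1.32). It turned to 0.31 without vehicle replicate 2, to 0.085 without ABT263 replicate 2 and to 0.72 without both.

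Fosb, a relative of Fos that also pairs with JUN proteins (chromosome 7, 19302696 to 19310051), had the smallest p of the 10 genes. It stood at 5.25, 9.72 and 2.62 CPM with vehicle and at 15.8, 10.7 and 8.97 CPM with ABT263. The ABT263 libraries were the upper ones but for replicate 3, which lay below vehicle replicate 2. Means were 5.86 ± 3.59 and 11.8 ± 3.56 CPM (SD, n = 3 in each group). The log2 fold change was 1.01 (SE 0.50, 95% interval -0.19 to 2.21, edgeR adjusted p = 0.628), and it ran from 0.65 without vehicle replicate 3 to 1.59 without vehicle replicate 2 (adjusted p = 0.737 and 0.626). Its promoter, unlike that of Fos, showed no TATAAA in the printed window.

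Ratios between the 10 genes, which cancel a level shared by 2 genes in a library, were compared between the groups. Of 45 ratios, 7 (15.6%) did not overlap between the groups, where 12.8% of all pairs of tested genes did not, so the count was near the background. One of the 7, picked after its values had been seen, is given as a description. The ratio of Fos to Fosb, each in CPM, was 7.08, 8.58 and 9.87 with vehicle and 4.72, 1.27 and 3.21 with ABT263. Every ABT263 library was below every vehicle library, and the log2 ratio differed by -1.65. Without ABT263 replicate 2, in which Fos was lowest, the log2 ratio of Fosb to Fos differed by 1.12, against 1.65 over all libraries. Fosb was part of 5 of the 7: with Fos, Junb, Egr1, Egr2 and Ier2. The other 2 were Junb and Egr2, each to Egr3.

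Jun, the main partner of FOS proteins (chromosome 4, 95049034 to 95052222), was the steadiest of the 10. It stood at 139, 84.4 and 115 CPM with vehicle and at 116, 122 and 138 CPM with ABT263. All ABT263 libraries lay within the vehicle range, and the highest library was 1.65 times the lowest. Between the groups the log2 fold change was 0.15 (SE 0.23, 95% interval -0.39 to 0.69), and it was -0.025 without vehicle replicate 2, in which Jun was lowest. Its within-group SD ranked at the 31.0th percentile of all tested genes, and that of Fos at the 88.8th.

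Junb, a JUN protein that can oppose JUN at some targets (chromosome 8, 84974484 to 84978718), followed Fos rather than Jun across libraries. It stood at 87.8, 151 and 84.8 CPM with vehicle and at 121, 38.9 and 69.2 CPM with ABT263. As for Fos, vehicle replicate 2 and ABT263 replicate 1 were the upper libraries and ABT263 replicate 2 the lowest. The log2 fold change was -0.50 (SE 0.45, 95% interval -1.56 to 0.57). It was -0.999 without ABT263 replicate 1 (adjusted p = 0.410), -0.18 without either of the replicates 2 taken singly and 0.14 without both.

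**Figure D2:**
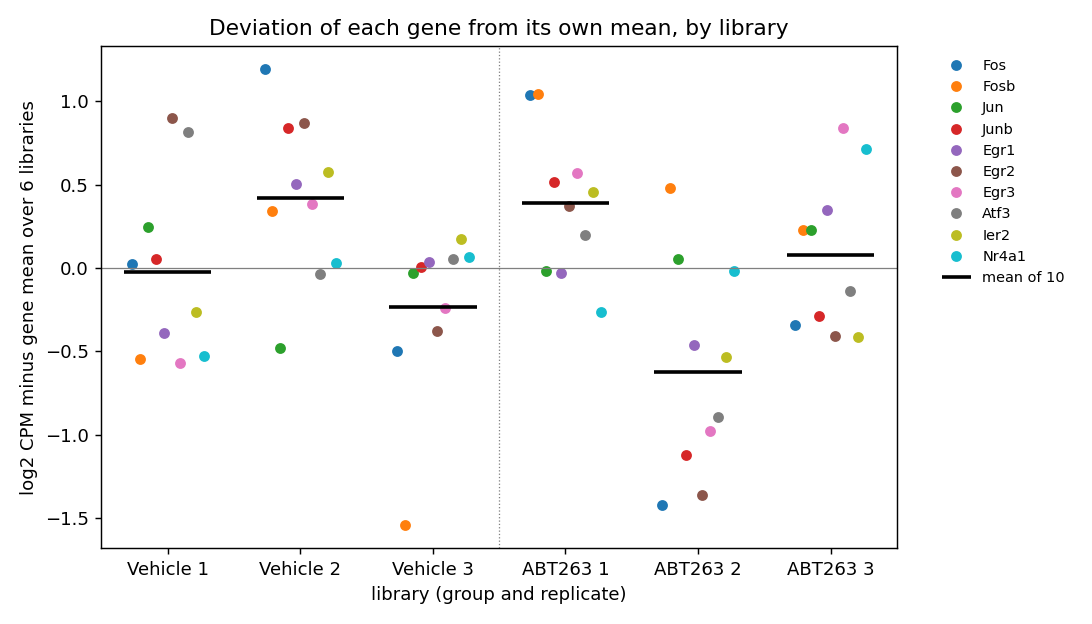
Deviation of each gene from its own mean over the 6 libraries, in log2 CPM, with 1 point per gene and a bar at the mean of the 10. The means lie at 0.42 in vehicle replicate 2 and 0.39 in ABT263 replicate 1, and at -0.62 in ABT263 replicate 2, so that high and low libraries occur in the same group.

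Egr1, the EGR factor that drives growth factor and clotting genes in the injured artery, stood at 41.0, 75.9 and 54.9 CPM with vehicle and at 52.4, 38.9 and 68.4 CPM with ABT263. The groups lay over the same range, with a log2 fold change of -0.11 (SE 0.30, 95% interval -0.83 to 0.62). It was 0.15 without vehicle replicate 2, 0.079 without ABT263 replicate 2 and 0.33 without both.

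Egr2, known as KROX20 and active both in Schwann cells and in alternatively activated macrophages (chromosome 10, 67535475 to 67542188), had the lowest fold change of the 10. It stood at 44.0, 43.3 and 18.2 CPM with vehicle and at 30.6, 9.22 and 17.8 CPM with ABT263. Vehicle replicate 3 lay among the ABT263 libraries, so the groups overlapped. The log2 fold change was -0.87 (SE 0.51, 95% interval -2.09 to 0.35, edgeR adjusted p = 0.688), or -1.38 without ABT263 replicate 1 and -0.36 without both replicates 2. Macrophage marker sums, at 27086, 24429.6 and 16939.6 CPM with vehicle and 17005, 8527 and 16639.7 CPM with ABT263, were likewise highest in vehicle replicates 1 and 2 and lowest in ABT263 replicate 2. Their part in the Egr2 values was not tested.

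Egr3, a factor known as a target of calcium signalling in lymphocytes (chromosome 14, 70077203 to 70082614), was among the lowest of the 10. It stood at 5.66, 11 and 7.12 CPM with vehicle and at 12.5, 4.27 and 15.1 CPM with ABT263. The ABT263 libraries held both the highest and the lowest value, and the log2 fold change was 0.42 (SE 0.50, 95% interval -0.78 to 1.62). It was 0.082 without ABT263 replicate 3, 0.23 without vehicle replicate 1, 0.73 without vehicle replicate 2 and 0.80 without ABT263 replicate 2. Without both replicates 2 it was 1.11 (SE 0.23, adjusted p = 0.632), a fit that takes out the highest vehicle and the lowest ABT263 value of Egr3. Egr2 and Egr3 therefore had fold changes of opposite sign, but the interval of each spanned 0. As a description, the ratio of Egr2 to Egr3 was 7.78, 3.94 and 2.56 with vehicle and 2.44, 2.16 and 1.18 with ABT263. Its nearest libraries were almost equal, and 12.8% of all pairs of tested genes had a ratio without overlap.

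Atf3, a stress-induced bZIP factor that restrains inflammatory genes in macrophages (chromosome 1, 191170296 to 191218039), was the most abundant of the 10. It stood at 424, 235 and 250.5 CPM with vehicle and at 276, 130 and 219.7 CPM with ABT263. Vehicle replicate 1 was the high library and ABT263 replicate 2 the low one, while the remaining 4 lay close together. Its log2 fold change was -0.54 (SE 0.37, 95% interval -1.42 to 0.34, edgeR adjusted p = 0.735), and -0.22 at the nearest to 0 when any 1 library was left out.

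Ier2, a small nuclear protein of the immediate early response (chromosome 8, 84661331 to 84662852), stood at 28.6, 51.2 and 38.8 CPM with vehicle and at 47.1, 23.7 and 25.8 CPM with ABT263. Its order of libraries was like that of Junb, with vehicle replicate 2 and ABT263 replicate 1 on top. The log2 fold change was -0.30 (SE 0.34, 95% interval -1.11 to 0.52), or 0.11 without both replicates 2. Nr4a1, the nuclear receptor NUR77 (chromosome 15, 101254269 to 101274795), stood at 23.4, 34.4 and 35.3 CPM with vehicle and at 28.1, 33.4 and 55.3 CPM with ABT263. ABT263 replicate 3 was the high library, and the other ABT263 libraries lay within the vehicle range. Its log2 fold change was 0.33 (SE 0.31, 95% interval -0.41 to 1.06), or -0.016 without ABT263 replicate 3.

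**Figure D3:**
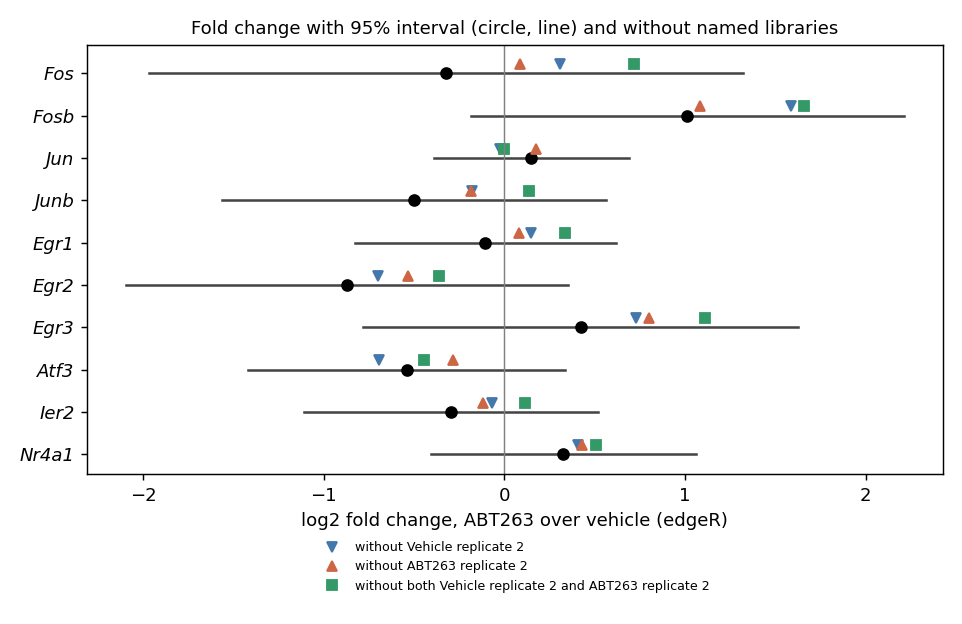
Log2 fold change of each gene, ABT263 over vehicle, with its 95% interval (circle and line), and the values without vehicle replicate 2, without ABT263 replicate 2 and without both. Every interval spans 0, and the values for Fos, Egr1, Jun, Junb and Ier2 lie on the other side of 0 in at least 1 of the 3 reduced fits.

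Levels per kilobase of exon allow the genes to be ranked against each other. Atf3 was the highest of the 10 in each of the 6 libraries, at 141 ± 48.6 CPM per kb with vehicle and 96.9 ± 34.2 with ABT263 (SD, n = 3). Junb followed at 59.7 ± 20.7 and 42.2 ± 22.9 CPM per kb and Jun at 35.4 ± 8.61 and 39.3 ± 3.49, and the mean ± SD ranges of these neighbours overlapped in both groups. Ier2 (26.0 ± 7.44 with vehicle) and Fos (23.1 ± 14.5) came next, again within their spread. Egr1 (12.8 ± 3.93), Nr4a1 (11.6 ± 2.47) and Egr2 (11 ± 4.61) formed a lower group with vehicle, in which Egr2 was the lowest with ABT263 at 6.03 ± 3.37. Egr3 (1.93 ± 0.671) and Fosb (1.55 ± 0.950) were the lowest of the 10 with vehicle, and with ABT263 they stood at 2.59 ± 1.38 and 3.13 ± 0.942 CPM per kb. These levels rest on the exon lengths of the GENCODE M21 basic annotation, which need not be those of the transcripts in this tissue.

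Profiles over the libraries differed among the 10 genes. Likeness was measured as the root mean square difference between profiles of log2 CPM, each centred on its own mean over the 6 libraries. The closest of the 45 pairs were Junb with Ier2 (0.30), Egr1 with Nr4a1 (0.32) and Fos with Junb (0.35), and the median pair stood at 0.69. The farthest were Fosb with Egr2 (1.15) and Fosb with Atf3 (1.10). Among 11803 other genes, those nearest to the mean profile of the 10 were Snx1, Slc16a3, Meis3, Nans, Fignl1, Chaf1a, E2f1 and Nme1, at 0.076 to 0.099, where a flat profile would stand at 0.36. The 6 libraries share the differences in depth and cell mixture given above, and no test was made of these likenesses.

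Single genes had other neighbours, looked up after the values had been seen. The gene nearest to Fos was Cd14, the lipopolysaccharide co-receptor of myeloid cells, at a difference of 0.080. Cd14 stood at 72.3, 169.6 and 52.9 CPM with vehicle and at 132, 27.9 and 60.2 CPM with ABT263, the same order of libraries as Fos from top to bottom. The gene nearest to Egr2 was Lgals3, the macrophage lectin galectin-3, at 0.16, with 4013, 4110.4 and 2232 CPM against 3375, 874 and 2084 CPM. Socs3, the feedback inhibitor of cytokine receptors, was the third nearest to Fos (0.18). Fosb had no near neighbour, the nearest being Ypel4 at 0.39.

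The other AP-1, EGR and NR4A genes were counted in the same way. Of 13, 12 were tested (Egr4 was filtered out), 8 with a positive and 4 with a negative fold change, and the median log2 fold change was 0.17. None passed the test. Groups did not overlap for 2 of the 12, both higher with ABT263, a direction in which 5.68% of all tested genes did not overlap. Whether this differs from the 0 of 10 above was not tested. Nr4a3, the NR4A receptor NOR1, stood at 0.416, 0.649 and 0.409 CPM with vehicle and at 0.671, 2.55 and 2.93 CPM with ABT263 (log2 fold change 2.05, SE 0.63, edgeR adjusted p = 0.592). ABT263 replicate 1 was close to the highest vehicle library, so the separation was narrow there. Maff, a small MAF partner of bZIP factors, stood at 24.2 to 30.5 CPM with vehicle and 33.8 to 37.0 CPM with ABT263 (0.42, SE 0.16). Nr4a2, the third NR4A receptor, had a log2 fold change of 0.39 (SE 0.41).

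Of the further AP-1 proteins, Jund had a log2 fold change of 0.16 (SE 0.23), Fosl2 0.58 (SE 0.31) and Fosl1, at no more than 0.421 CPM, 1.03 (SE 0.69). The lymphoid and myeloid factors Batf3 and Batf had -1.36 (SE 0.67) and -0.88 (SE 0.45). Batf3 stood at 18.9 CPM in vehicle replicate 2 and at 2.65 to 5.25 CPM elsewhere, and was -0.29 without that library, while Batf was -0.40 without it. Exons of Jund and Fosl1 overlap another gene, so their counts are uncertain.

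Early induced genes that are not of these families were split in direction. Of 37 tested, 16 were positive and 21 negative (median log2 fold change -0.086), and none passed. Groups did not overlap for 4 of the 37, of which 2 were higher and 2 lower with ABT263. Over all tested genes the shares were 5.68% and 6.31%, so these counts were near the background, and the 4 genes are given as a description. Gadd45b, a stress sensor upstream of p38 kinase, stood at 56.0, 52.1 and 49.2 CPM with vehicle and at 35.0, 25.3 and 37.0 CPM with ABT263 (log2 fold change -0.70, SE 0.19, edgeR adjusted p = 0.592). Plk3, a stress-activated kinase, had -0.88 (SE 0.31). On the higher side, Klf4, a zinc finger factor of smooth muscle and endothelium, stood at 36.5, 43.8 and 59.2 CPM with vehicle and at 81.1, 81.5 and 59.7 CPM with ABT263 (0.67, SE 0.24), its nearest libraries being almost equal. Cebpd, an inflammatory bZIP factor, had 0.70 (SE 0.30), or 0.31 without ABT263 replicate 1. The feedback genes Dusp1, a MAPK phosphatase, and Zfp36, which destabilises cytokine mRNAs, had 0.23 (SE 0.34) and -0.77 (SE 0.40), each highest in vehicle replicate 2. Without that library they had 0.65 and -0.23, and Dusp1 had 0.022 without vehicle replicate 1. Plk3, Cebpd and Zfp36 share exon sequence with another gene.

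Upstream of the 10 genes, 21 kinases and activators were tested, 10 positive and 11 negative (median log2 fold change -0.027), and none passed. Groups did not overlap for 3 of the 21, all lower with ABT263, against 6.31% of all tested genes. Rps6ka1, a kinase of the ERK pathway that acts on FOS and CREB, stood at 64.8, 114 and 58.6 CPM with vehicle and at 51.3, 27.1 and 50.0 CPM with ABT263 (-0.88, SE 0.36, or -0.53 without vehicle replicate 2). Mkl1, a co-activator of the serum response factor, had -0.50 (SE 0.23), and Mapk14, the p38 alpha kinase, named here after its values had been seen, -0.19 (SE 0.15). Groups of Mapk7, the kinase ERK5, overlapped (-0.26, SE 0.17). The counts of Rps6ka1 and Mapk7 are uncertain, since exons of each overlap another gene. Srf itself, which binds the CArG box, had 0.23 (SE 0.18). Myocd, its smooth muscle co-activator, stood at 7.45, 87.7 and 51.9 CPM with ABT263 and at 4.54 to 24.3 CPM with vehicle (1.77, SE 0.93, or 1.05 without ABT263 replicate 2). It was high in the 2 ABT263 libraries with high smooth muscle markers, a list to which Myocd itself belongs. Of the EGR corepressors, Nab1 stood at 51.6 to 66.9 CPM with vehicle and 67.5 to 95.3 CPM with ABT263, a narrow gap. Its log2 fold change was 0.45 (SE 0.21, edgeR adjusted p = 0.601), and 5.68% of all tested genes were higher without overlap. The groups of Nab2 overlapped, and its counts are uncertain, since its exons overlap other genes.

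Products known as AP-1 or EGR targets were also divided, 8 positive and 8 negative among 16 (median log2 fold change 0.0049), none past the test. Mmp3, a matrix metalloproteinase, stood at 28.4, 83.2 and 48.4 CPM with vehicle and at 149, 69.9 and 420.2 CPM with ABT263 (2.0, SE 0.71, edgeR adjusted p = 0.592). ABT263 replicate 2 was the one that lay within the vehicle range, and without ABT263 replicate 3 the log2 fold change was 1.03. Pdgfb, a mitogen for smooth muscle, stood at 130.3 to 139.7 CPM with vehicle and at 99.0, 48.4 and 89.2 CPM with ABT263 (-0.76, SE 0.28, or -0.50 without ABT263 replicate 2). It was the 1 gene of the 16 without overlap, and 6.31% of all tested genes were lower without overlap. Vegfa had 1.29 (SE 0.53), at 19.8 to 30.6 CPM with vehicle and at 84.7, 74.1 and 19.0 CPM with ABT263. ABT263 replicate 3 was thus its lowest library. F3, tissue factor, had 2.61 (SE 1.18) with 26.8 CPM in ABT263 replicate 2 and at most 2.84 CPM elsewhere, and 0.20 without that library.

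**Figure D4:**
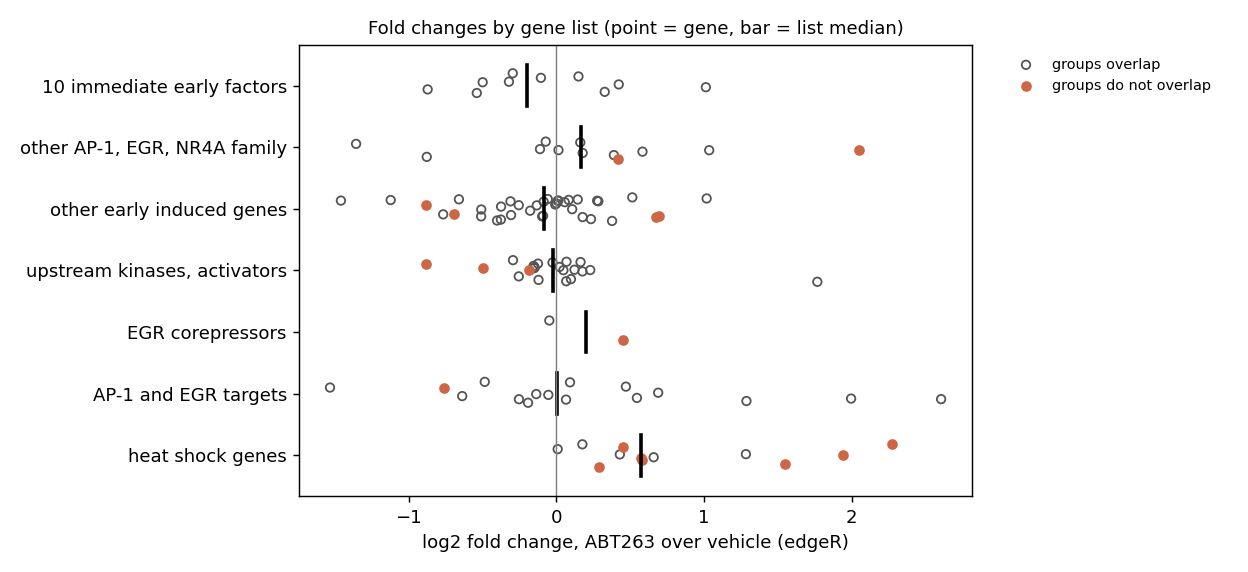
Log2 fold change, ABT263 over vehicle, of every tested gene of each list, with filled points for genes whose groups do not overlap and a bar at the list's median. The 10 immediate early factors have no filled point and a median of -0.20, and the heat shock list has 7 filled points and a median of 0.57.

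Heat shock genes, another fast stress response, had a different pattern. Of 12 tested, 12 were higher on average with ABT263 (median log2 fold change 0.57), against 7629 of all 15222 tested genes. The smallest was Hspe1 at 0.0082, or -0.011 by DESeq2. In 7 of the 12 the groups did not overlap, each higher with ABT263, against 5.68% of all tested genes. Apart from Hspb1 and Hspa1b the gaps were narrow. The highest vehicle and lowest ABT263 libraries stood at 30.1 and 31.8 CPM for Hspa1a, and at 57.3 and 59.1 for Dnajb1. They stood at 191 and 193 CPM for Dnaja1, 82.0 and 84.4 for Bag3, and 330 and 334 for Hsp90aa1. Exons of Hspa1a and Dnaja1 overlap other genes, so the counts of both are uncertain. Vehicle replicate 2 was the lowest library for every gene of the list but Hspe1. By edgeR none passed, and DESeq2 called Hspa1b alone of the list (adjusted p = 0.0407). Hspb1, a small heat shock protein abundant in smooth muscle, stood at 69.3, 65.2 and 90.5 CPM with vehicle and at 101, 347 and 209 CPM with ABT263 (1.55, SE 0.44). Hspa1b, an inducible chaperone of the HSP70 family, stood at 23.1, 8.12 and 28.2 CPM with vehicle and at 35.2, 155 and 96.7 CPM with ABT263 (2.27, SE 0.66). Its near-identical copy Hspa1a had 1.94 (SE 0.61), and reads of the pair may be shared between them. Dnajb1, their co-chaperone, had 0.57 (SE 0.21). The highest levels of these 4 genes were in ABT263 replicates 2 and 3, where smooth muscle markers summed to 15979 and 9848 CPM against at most 3659 CPM elsewhere, and the part of smooth muscle in them was not tested.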

How the data were processed

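The RNA libraries of 6 plaque samples were TruSeq v2 libraries (Illumina), per the labels' protocols. For each gene symbol the authors deposited raw counts, as whole numbers. Per the submitters' processing notes, which give no roles, the tools were Bowtie2 2.2.6, TopHat2 2.0.14, Subread and featureCounts 1.4.6, and the build mm10. The annotation, the strand setting and the treatment of reads with several matches: not given in the sources used here. This kit does not mark strand, so antisense reads cannot be told apart. Groups were taken from sample titles, and replicates were numbered in accession order. The labels do not say that samples are separate animals, so p-values measure only the spread between these samples, which may be technical.

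In R 4.3.3, genes were kept by filterByExpr (minimum count 10, minimum total 15), scaled by TMM and tested in edgeR 4.0.16 by quasi-likelihood (group alone, Benjamini-Hochberg over all 15222 genes, threshold 0.05). SEs were derived from each fold change and its F statistic. Alternatives were limma 3.58.1 (voom), DESeq2 1.42.0, other scalings, no filter, fits without single libraries and a fit without both replicates 2. Log2 CPM used a prior count of 2. A count of 3, the limit that 0 allows, came to 0.0278 to 0.0480 CPM. Positions and exon lengths are from GENCODE M21 (GRCm38, which mm10 denotes). The 10 genes and all lists were chosen with earlier results of these data known. Beyond the 10, genes named were the 4 of smallest p in each list and some listed outright, of which not all are given. Nearest genes and ratios of single members were picked after values were seen.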

Additional observations from a re-analysis of the deposited data

How the results depend on the processing

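None of the 10 genes was called in any of the 12 alternative fits, and no direction changed with RLE size factors, unscaled library totals, no low-count filter, DESeq2 or limma-voom. Over all genes edgeR called 0 (1276 at an unadjusted p under 0.05), limma-voom 0 and DESeq2 153. Hspa1b was called by DESeq2 alone (2.25). Over the fits that left out 1 library, 0 genes were called. There the median log2 fold change of the 10 ran from -0.39 to 0.082, Fos from -1.20 to 0.31, Jun from -0.025 to 0.32, Egr1 from -0.33 to 0.15, Nr4a1 from -0.016 to 0.51, Junb from -0.999 to -0.18, Ier2 from -0.68 to -0.066 and Nr4a2 from -0.0035 to 0.76. Without both replicates 2 the median was 0.24, Fos 0.72, Jun -0.0041, Junb 0.14, Egr1 0.33, Ier2 0.11 and Nr4a2 0.95, from 4 libraries. Vehicle replicate 2 and ABT263 replicate 2 had the highest and the lowest mean of the 10 genes. Leaving both out thus had to raise the mean difference of the 10. Beyond this, the cause of these shifts was not tested. The log2 ratio of Fosb to Fos, an alternative added after seeing the data, ran from 1.12 to 2.06 when 1 library was left out and was 1.10 without both. Heat shock genes were positive in 11 or 12 of 12 cases in every fit. No paired analysis was possible because the labels give no replicate numbers shared between groups.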
